A study of Caenorhabditis elegans with 2 samples.

Results

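Binding of UNC-62, a transcription factor of the MEIS homeodomain class, was described at 9 autophagy genes of the nematode Caenorhabditis elegans: lgg-1, lgg-2, bec-1, unc-51, epg-5, atg-2, atg-7, atg-9 and atg-18. They are 9 of 19985 annotated protein-coding genes and were picked by name for their place in the autophagy pathway, with the strong site at lgg-2 already known. Every peak was taken whose summit, the position the authors give as its highest point, lay in one of these genes or within 5000 bp of its ends. The choice therefore rests on the same peak lists that are reported here, so signals and ranks are descriptions and none was tested.

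The assay was chromatin immunoprecipitation followed by sequencing (ChIP-seq) on whole L2 larvae of strain OP600, with the sexes pooled. The strain combines the unc119(ed3) allele with the insertion wgIs600, which holds unc119 and a copy of unc-62 carrying the TY1, EGFP and FLAG tags, so both samples carry the tagged copy. The series holds 1 group with 2 biological replicates and no second genotype, stage or treatment. Whole animals mix all tissues, and a site in a few cells cannot be told apart from a weak site in many. The control library was not analysed here.

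In autophagy a double membrane forms around cytoplasm and carries it to the lysosome. A kinase complex around UNC-51 starts the process, a lipid kinase complex with BEC-1 marks the membrane, and ATG-9, ATG-2 and ATG-18 help it to grow. ATG-7 activates the ubiquitin-like proteins LGG-1 and LGG-2, which are then coupled to the membrane lipid, and EPG-5 acts late, when the vesicle matures into a degrading compartment. Autophagy acts throughout worm development, including the clearance of paternal mitochondria and protein aggregates in embryos.

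The authors' lists held 414 reproducible peaks, 28005 candidates called on the pooled replicates and 30000 candidates in each replicate list. The reproducible peaks are those with the 414 highest signals of the pooled list, from 28.2 upwards, and the pooled median is 9.02. Signal is the authors' own value for each peak. It runs on unlike scales in the pooled and replicate lists, and the rank within the list, 1 being the strongest, is given beside it. Read depth is unknown. Each of the 9 genes had a pooled candidate within 5000 bp, beside 94.8% of all protein-coding genes. They had 58 in all, 5 of them reproducible, with signals from 6.82 to 81.1 and a median of 9.24. The candidate just inside the window lay 4739 bp from epg-5, with a signal of 7.07, and the one just outside lay 5128 bp from atg-2, with a signal of 12.3.

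Reproducible peaks lay within 5000 bp of 4 of the 9 genes, lgg-1, lgg-2, atg-7 and atg-18, beside 4.94% of all protein-coding genes. The peak in the atg-7 window was closest to another gene's 5' end, while lgg-1, lgg-2 and atg-18 were themselves the nearest gene, beside 1.75% of all protein-coding genes. Each of these 3 also had a reproducible summit in its own promoter, defined as 1000 bp upstream to 200 bp downstream of a 5' end, beside 1.38% of all. Within 2000 bp the count was 3 of 9, beside 2.86% of all protein-coding genes, and within 1000 bp it was again 3 of 9, beside 2.08%. Nothing is read from these shares, because the genes were picked with the peaks in view, and their median length was 3285 bp against 2026 bp for all protein-coding genes. Annotated 5' ends of worm genes are often sites of trans-splicing rather than transcription starts. Of the 414 highest peaks of replicate 1 alone, lgg-1 and lgg-2 had a peak within 5000 bp, beside 4.81% of all genes. Of the 414 highest of replicate 2 alone, lgg-1, lgg-2 and atg-18 had one, beside 4.81% again. The peak near atg-7 ranked 644 and 874 there.

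The sequences under the 5 reproducible summits are shown because all 5 hold GAGAGA or its reverse complement TCTCTC. Each run is 201 bases of build ce11, plus strand, centred on the summit, with matches to GAGAGA and to TGACAG, the MEIS core motif, on either strand in capitals. The windows are chrIV:10936105-10936305 for lgg-2, chrII:6348525-6348725 and chrII:6347851-6348051 for lgg-1, chrV:8631479-8631679 for atg-18 and chrIV:11083033-11083233 for the atg-7 window.
lgg-2, rank 25: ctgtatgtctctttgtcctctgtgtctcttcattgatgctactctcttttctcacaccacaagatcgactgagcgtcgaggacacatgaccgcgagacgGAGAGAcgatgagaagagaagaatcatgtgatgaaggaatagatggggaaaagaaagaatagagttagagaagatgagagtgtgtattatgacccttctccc
lgg-1, rank 150: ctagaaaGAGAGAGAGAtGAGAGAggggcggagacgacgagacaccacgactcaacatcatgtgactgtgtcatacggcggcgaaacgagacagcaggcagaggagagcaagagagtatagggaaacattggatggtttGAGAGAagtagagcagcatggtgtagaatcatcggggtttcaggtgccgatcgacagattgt
lgg-1, rank 361: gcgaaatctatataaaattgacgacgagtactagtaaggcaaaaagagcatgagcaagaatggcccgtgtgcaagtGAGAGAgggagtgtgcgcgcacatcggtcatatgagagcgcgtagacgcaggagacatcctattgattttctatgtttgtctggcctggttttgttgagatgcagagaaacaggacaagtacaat
atg-18, rank 378: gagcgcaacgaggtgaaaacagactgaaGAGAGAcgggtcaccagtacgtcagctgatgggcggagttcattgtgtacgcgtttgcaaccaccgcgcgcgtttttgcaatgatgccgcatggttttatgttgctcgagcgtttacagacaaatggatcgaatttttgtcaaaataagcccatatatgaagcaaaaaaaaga
atg-7 window, rank 326: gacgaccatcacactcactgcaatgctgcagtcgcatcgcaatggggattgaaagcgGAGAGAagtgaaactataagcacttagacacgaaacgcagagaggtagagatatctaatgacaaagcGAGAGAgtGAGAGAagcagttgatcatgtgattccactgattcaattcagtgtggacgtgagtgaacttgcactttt

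These 5 windows held 1, 5, 1, 1 and 3 matches to GAGAGA in the order shown, overlapping matches counted, and none to TGACAG. These counts hold for the pooled summits. In replicate 1 a second, weaker peak overlapped the lgg-2 peak (rank 8455) and the atg-18 peak (rank 2561). Each of these second summits had TGACAG within 100 bp, while the stronger replicate 1 summits there, of rank 28 and 533, had none. The longest stretch of alternating G and A was 11 bases in the farther lgg-1 site, and 6 or 7 bases in the other 4. GC content ran from 44.8% to 51.2%, and the median of all 414 reproducible peaks was 45.0%. Among all reproducible peaks 50.7% held GAGAGA and 11.6% held TGACAG, so a GA repeat was common in the set from which these 5 come. A match describes the letters in the window and does not show which protein was bound.

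lgg-2, which encodes the LC3-type member of the Atg8 proteins, had the strongest peak of the 9 genes (gene at chromosome IV 10934196 to 10935903, minus strand). The peak, at 10936037 to 10936372, had a signal of 81.1 and rank 25 in the pooled list. It had a signal of 51.9 and rank 28 in replicate 1, and a signal of 27.4 and rank 40 in replicate 2. Both replicates thus placed it among their 40 strongest sites. Of all protein-coding genes, 79 (0.395%) had a candidate of rank 25 or higher within 5000 bp.

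The lgg-2 summit lay 302 bp upstream of the outer of 2 annotated 5' ends, in intergenic sequence of 1550 bp. That interval separates lgg-2 from fic-1, which is transcribed in the other direction and encodes a Fic-domain enzyme that adds AMP to proteins. The fic-1 5' end lay 1249 bp from the summit, so both genes face the site and lgg-2 is the closer. A weaker candidate in the same interval, 402 bp upstream of fic-1, had rank 1894, with rank 633 in replicate 1 and no counterpart in replicate 2.

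A second site, in an intron of lgg-2 304 bp downstream of the outer 5' end, fell just outside the reproducible set with a signal of 26.0 and rank 494. In replicate 2 it had a signal of 15.8 and rank 176, while in replicate 1 it had a signal of 6.17 and rank 14657. The replicates therefore differed at this site, in contrast to the upstream one. Its sequence, chrIV:10935499-10935699, is shown beside the upstream one because it holds the repeat on the other strand.
lgg-2 intron, rank 494: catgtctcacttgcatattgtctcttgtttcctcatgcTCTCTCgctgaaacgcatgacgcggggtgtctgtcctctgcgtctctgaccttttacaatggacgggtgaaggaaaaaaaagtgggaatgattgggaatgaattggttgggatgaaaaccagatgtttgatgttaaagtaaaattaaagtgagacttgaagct
The remaining 7 of the 10 candidates in the lgg-2 window had signals of 12.9 or less. Of these 3 were nearest to the dynactin gene dnc-1, 3 to fic-1 and 1, in the 3' UTR, to lgg-2.

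**Figure D1:**
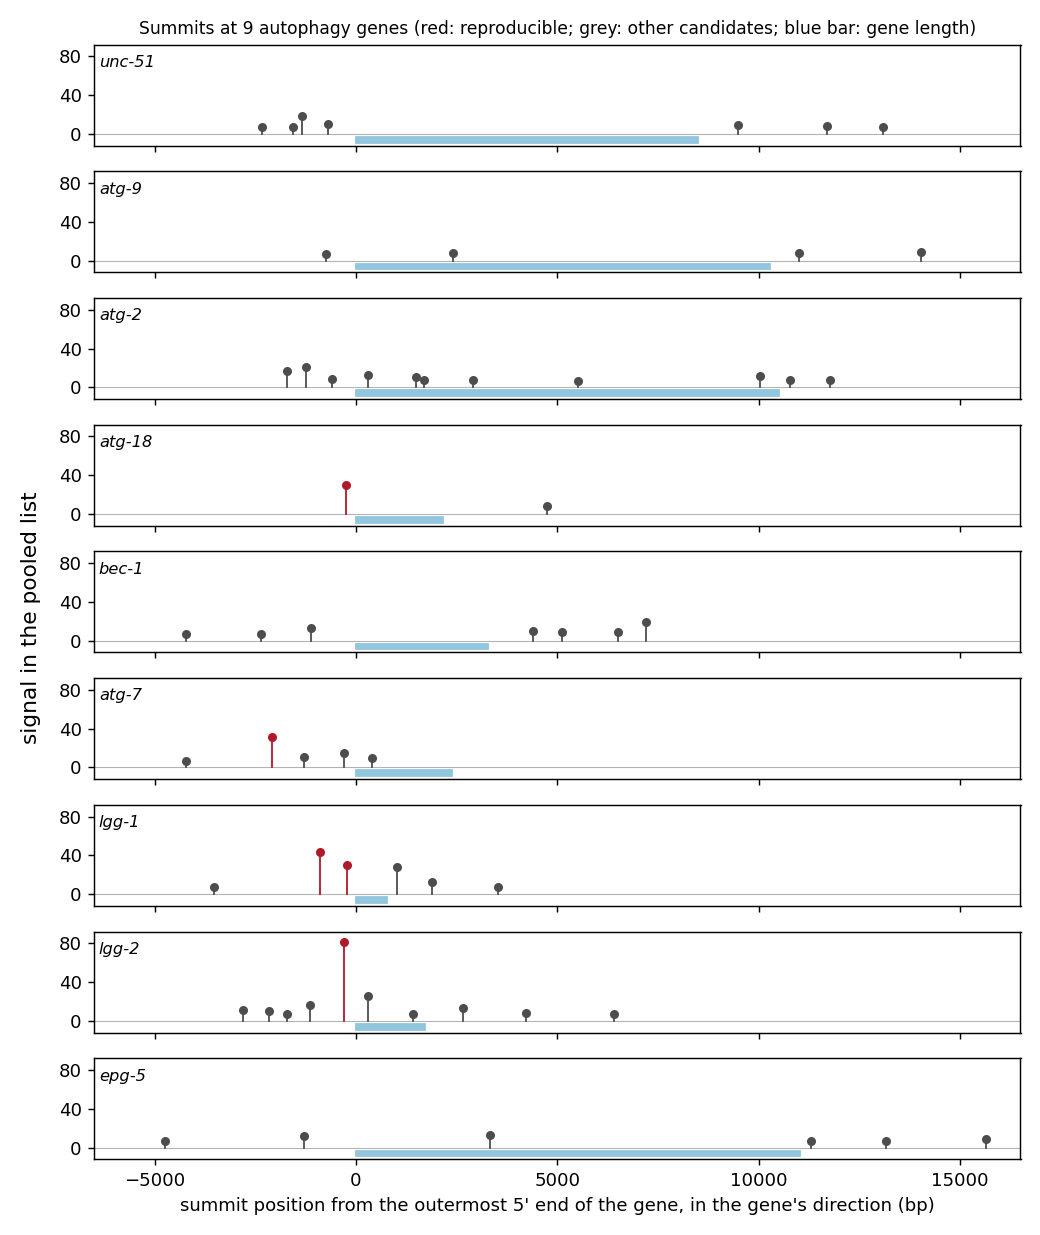
Signal in the pooled list (vertical axis) of each candidate at its distance in bp from the outermost 5' end of the gene (horizontal axis, gene direction to the right), 1 panel per gene; red marks reproducible peaks, grey the other candidates and the blue bar the gene's length. The reproducible sites of lgg-2, lgg-1 and atg-18 stand 232 to 906 bp upstream of the gene, and that in the atg-7 window 2078 bp upstream.

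lgg-1 encodes the GABARAP-type Atg8 protein, the other worm member of the family (chromosome II 6346960 to 6347719, minus strand), and was the only one of the 9 genes with 2 reproducible peaks. The summits lay 906 and 232 bp upstream of its single 5' end and 674 bp apart, within 1487 bp of intergenic sequence that ends at the 3' end of C32D5.10. The farther peak (6348457 to 6348792) had a signal of 43.0 and rank 150, with rank 266 in replicate 1 and 175 in replicate 2. The nearer peak (6347783 to 6348118) had rank 361, with a signal of 17.7 and rank 487 in replicate 1 and a signal of 8.66 and rank 1543 in replicate 2. In replicate 2 another peak, 54 bp upstream of lgg-1 with a signal of 8.31 and rank 1822, also overlapped the nearer peak. By the higher-ranked of these replicate 2 peaks, the lgg-1 sites lay further apart in rank in replicate 2 than in replicate 1. Whether the split of the nearer site affects its rank was not tested.

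A further lgg-1 site lay on the other side of the gene, 264 bp beyond its 3' end and 732 bp upstream of C32D5.8. With a signal of 28.0 and rank 426, rank 417 in replicate 1 and 1735 in replicate 2, it was the member candidate closest below the reproducible set, while the atg-18 peak of rank 378 was the closest inside. Unlike the windows of the 5 reproducible summits, its window held no GAGAGA and 2 matches to TGACAG, and its GC content of 34.8% was lower than in any of them. Its sequence is shown for that difference (chrII:6346596-6346796, plus strand, capitals as above).
lgg-1 3' side, rank 426: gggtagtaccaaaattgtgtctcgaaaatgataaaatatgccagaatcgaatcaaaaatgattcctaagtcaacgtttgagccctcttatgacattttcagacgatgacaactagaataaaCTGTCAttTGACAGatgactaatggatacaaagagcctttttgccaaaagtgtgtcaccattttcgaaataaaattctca

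ATG-18, a protein of the WIPI family that binds phosphoinositide lipid, had 2 pooled candidates in its window, the fewest of the 9 genes (chromosome V 8629174 to 8631327, minus strand). The reproducible one, 8631411 to 8631746, lay 252 bp upstream of atg-18 in 483 bp of intergenic sequence that ends at the 3' end of oac-29. Its signal was 29.5 at rank 378, with a signal of 17.2 and rank 533 in replicate 1 and a signal of 15.1 and rank 201 in replicate 2. The other candidate, in an intron of F41E6.17, had a signal of 8.50, below the pooled median, and no counterpart in either replicate.

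For atg-7, the E1-like enzyme gene (chromosome IV 11078682 to 11081055, minus strand), the reproducible peak lay 2078 bp upstream, beyond let-70. That gene, for an E2 ubiquitin-conjugating enzyme, is transcribed in the same direction and ends 30 bp before the atg-7 5' end. The peak (11082965 to 11083300) had a signal of 31.4 and rank 326, with rank 644 in replicate 1 and 874 in replicate 2. It lay between the 5' ends of klc-1, a kinesin light chain gene, at 602 bp and let-70 at 880 bp, which point away from each other. These distances hold for the pooled summit. The replicate 2 summit, at 11082984, had let-70 nearest at 731 bp and no GAGAGA within 100 bp. Whether let-70 and atg-7 share a transcript was not tested, and the annotation used here lists no operons. Counts by a gene's own 5' end treat them as separate genes, each with its own start. The candidate nearest to the atg-7 5' end lay 296 bp upstream of it, in the 3' UTR of let-70, with a signal of 14.4 and rank 2778, rank 2241 in replicate 1 and 16882 in replicate 2. A weaker one lay inside atg-7, in a coding exon 400 bp downstream of the 5' end, with a signal of 9.36 and rank 12446, rank 15335 in replicate 1 and no counterpart in replicate 2.

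The other 5 genes had no reproducible peak within 5000 bp, and their strongest candidates spanned a wide range. The nearest reproducible peak was 9268 bp from epg-5, 53621 bp from bec-1, 62777 bp from atg-2, 259611 bp from atg-9 and 466656 bp from unc-51. The one nearest epg-5 was strong, with a signal of 79.7, rank 27, and ranks 46 and 18 in replicates 1 and 2, and lay 421 bp from the 5' end of icd-1.

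ATG-2, a lipid transfer protein that works with ATG-18, had the strongest candidate of these 5 genes (chromosome X 6806763 to 6817266, plus strand). It lay 1232 bp upstream with a signal of 21.3 and rank 807, with rank 6313 in replicate 1 and 1033 in replicate 2. A neighbouring candidate 1708 bp upstream, with a signal of 16.5 and rank 1686, was ranked the other way, 970 in replicate 1 and 13587 in replicate 2. Within the same upstream interval the replicates thus favoured different sites. The atg-2 window held 11 candidates, the most of the 9 genes, of which 8 had an atg-2 5' end nearest.

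TGACAG matches around atg-2 are given because their number stood out once seen. The motif lay within 100 bp of 5 of its 11 candidate summits, at 5 different positions, and within 100 bp of 2 of the 47 candidates of the other 8 genes. The share over all pooled candidates was 7.97%. In the replicate 1 list 4 of 11 atg-2 candidates held it, beside 7.98% of all candidates in that list. In the replicate 2 list 2 of 9 did, beside 7.55%. These are few candidates, and no difference was tested. The atg-2 window held 18 matches, or 0.878 per kb, the other windows held 0.216 to 0.647 per kb, and the median over all protein-coding genes was 0.354 per kb. The strongest atg-2 site, chrX:6805431-6805631, is shown as the one with the highest signal that holds the motif near this gene.
atg-2, rank 807: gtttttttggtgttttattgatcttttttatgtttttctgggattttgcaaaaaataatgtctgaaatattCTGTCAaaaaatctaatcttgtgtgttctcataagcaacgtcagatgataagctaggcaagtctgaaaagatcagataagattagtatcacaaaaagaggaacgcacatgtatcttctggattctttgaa

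UNC-51, the Atg1-type kinase first known from its role in axon growth, had its strongest candidate 1338 bp upstream (chromosome V 19995986 to 20004485, minus strand). This site had a signal of 18.9 and rank 1100, with rank 3827 in replicate 1 and 1570 in replicate 2, and held 2 matches to GAGAGA. It lay in a 3284 bp interval between unc-51 and Y60A3A.23, which diverge. A second pooled candidate overlapped it, with a signal of 7.10, and shared its replicate peaks.

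BEC-1, the Beclin protein, had its strongest candidate in another gene, an intron of the stress-response factor gene skn-1, 3910 bp from the 3' end of bec-1 (chromosome IV 5661141 to 5664425, minus strand). That site had a signal of 19.8 and rank 954, rank 1059 in replicate 2 and no counterpart in replicate 1. The only candidate with bec-1 itself nearest lay 1126 bp upstream, with a signal of 13.4 and rank 3577, rank 7006 in replicate 1 and no counterpart in replicate 2. Neither was thus seen in both replicates.

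The strongest candidate of epg-5 lay in its coding sequence, 3336 bp downstream of the 5' end (chromosome II 6598344 to 6609365, minus strand), with a signal of 13.3 and rank 3635, rank 2907 in replicate 1 and 22365 in replicate 2. atg-9, which encodes a transmembrane protein of the growing membrane (chromosome V 349385 to 359658, plus strand), was lowest. Its 4 candidates had signals from 7.11 to 9.17, none was found in both replicates, and 77.6% of all protein-coding genes had a candidate of higher or equal rank than its strongest within 5000 bp. That strongest candidate lay in a coding exon of T22H9.1, with the mltn-6 5' end nearest and no counterpart in either replicate. The strongest with atg-9 itself nearest had a signal of 7.75 and rank 20812.

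**Figure D2:**
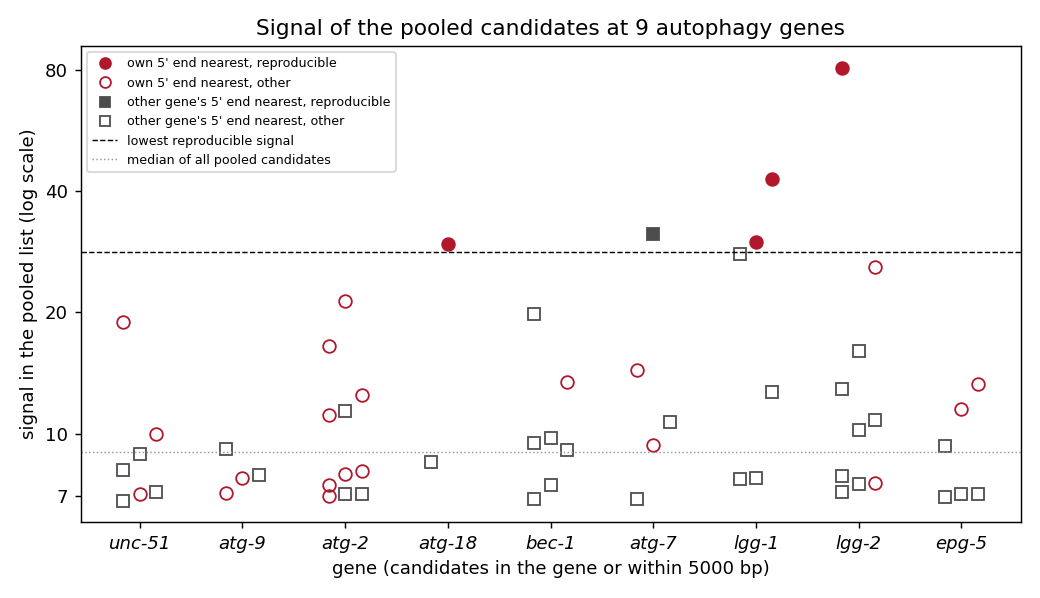
Signal of each of the 58 pooled candidates (vertical axis, log scale) by gene, in the order unc-51, atg-9, atg-2, atg-18, bec-1, atg-7, lgg-1, lgg-2 and epg-5. Circles have that gene's own 5' end nearest, squares another gene's, and filled symbols are reproducible. The filled symbols lie above the dashed line at 28.2, the lowest reproducible signal. Of the 4 atg-9 candidates only the strongest, at 9.17, lies above the dotted line at 9.02, the pooled median.

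In the order of their strongest signals the genes were lgg-2 (81.1), lgg-1 (43.0), atg-7 (31.4), atg-18 (29.5), atg-2 (21.3), bec-1 (19.8), unc-51 (18.9), epg-5 (13.3) and atg-9 (9.17), with a median of 21.3, beside 11.8 over the 18951 protein-coding genes with any candidate within 5000 bp. The order of these sites was not the same in every list. The atg-7 site ranked below the atg-18 site in both replicates though above it in the pooled list, and the atg-2 site ranked below the unc-51 site in replicate 1 and above it in replicate 2. lgg-2 and then lgg-1 came first in the pooled list and in each replicate.

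Of the 58 pooled candidates 30 (51.7%, exact 95% interval 38.2 to 65.0) overlapped a candidate of both replicate lists by at least 1 bp, 18 one of replicate 1 only, 6 one of replicate 2 only and 4 neither. The 30 are not all separate sites. The unc-51 candidates of rank 1100 and 25272 share their replicate peaks, as do the atg-2 candidates of rank 7253 and 22487. The interval treats all as independent, and no difference in overlap was tested. Among all pooled candidates 30.9% overlapped both, and among reproducible peaks 98.3%. The share for the 9 genes was 27.6% when summits had to lie within 100 bp. That value has no background share at the same setting and is not comparable with the 30.9%. The replicate lists held 63 and 56 candidates at the 9 genes, of which 16 (25.4%) and 20 (35.7%) overlapped no pooled candidate, beside 35.7% and 48.2% of all candidates in those lists. None of these at the 9 genes ranked higher than 5424 in replicate 1 or 7619 in replicate 2.

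**Figure D3:**
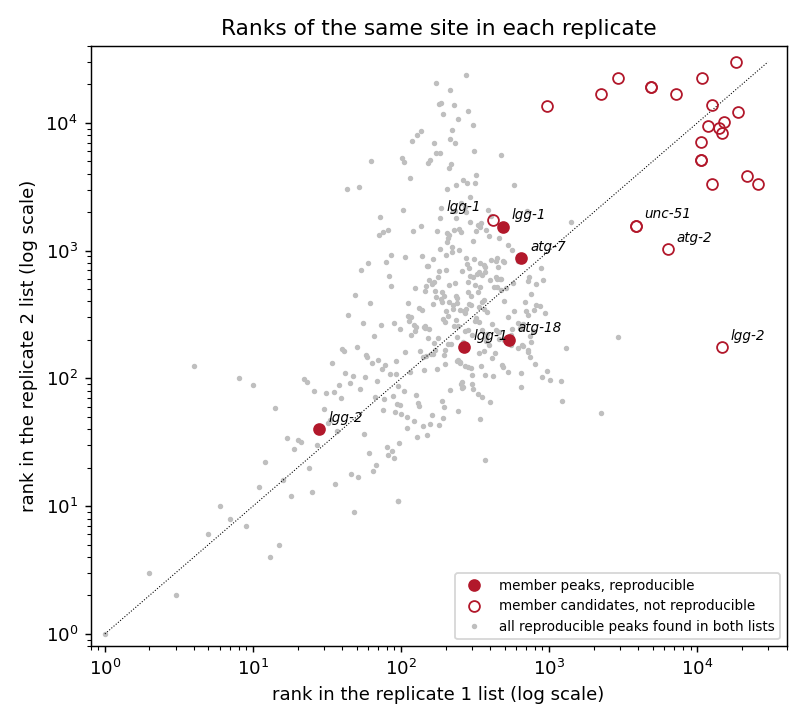
Rank of the same site in the list of replicate 1 (horizontal) and replicate 2 (vertical), both on log axes, for member peaks (red, filled where reproducible) and for all reproducible peaks found in both lists (grey); the dotted line marks equal ranks. The lgg-2 promoter site lies near the line at 28 and 40, while the lgg-2 intron site lies far from it at 14657 and 176.

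By location, 23 of the 58 summits were intergenic (39.7%, beside 39.3% of all pooled candidates), 15 were intronic (25.9%, beside 32.1%) and 15 lay in coding exons (25.9%, beside 23.1%). A further 2 lay in 5' UTRs (3.45%, beside 1.77%) and 3 in 3' UTRs (5.17%, beside 3.72%). Every member window was placed around a protein-coding gene and so holds that gene's own promoter. The background of all pooled candidates has no such windows, so the promoter shares below are not like for like. The 95% interval given with them treats neighbouring peaks as independent, and the genes were picked with the lists known. No difference was tested. Promoter summits of any protein-coding gene made up 44.8% (26 of 58, 95% interval 31.7 to 58.5), beside 28.8% of all pooled candidates, and 11 of the 26 lay in the promoter of the autophagy gene itself. Of the 58 summits 24 (41.4%) had the autophagy gene's own 5' end nearest, and the rest were nearer to a neighbour. Nearness does not show which gene, if any, is regulated.

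GAGAGA lay within 100 bp of 13 of the 58 summits (22.4%), beside 14.6% of all pooled candidates, and TGACAG of 7 (12.1%, 95% interval 4.99 to 23.3), beside 7.97%. The TGACAG share at the 9 genes was 15.9% (10 of 63) in the replicate 1 list, beside 7.98% of all candidates in that list. In the replicate 2 list it was 5.36% (3 of 56), beside 7.55%. These are few candidates, and the difference between the lists was not tested. Most of the GAGAGA matches were in the stronger member candidates. Of the 12 among the 2000 highest of the pooled list 8 held it (66.7%, 95% interval 34.9 to 90.1), and of the 46 below 5 did (10.9%, 95% interval 3.62 to 23.6). Among all pooled candidates the shares were 36.7% of the 2000 highest and 12.9% of those below. TGACAG lay in 3 of the 12 and 4 of the 46, beside 11.1% and 7.73% of all candidates in the same classes.

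**Figure D4:**
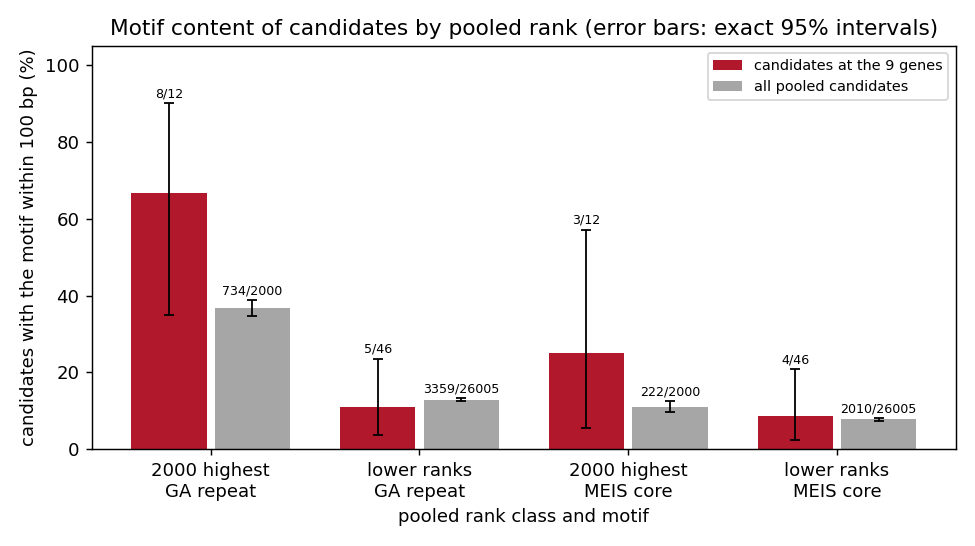
Percent of candidates with GAGAGA (GA repeat) or TGACAG (MEIS core) within 100 bp of the summit, among the 2000 highest pooled ranks and below them, for the 9 genes (red) and all pooled candidates (grey); error bars are exact 95% intervals and the fractions give the counts. At the 9 genes the repeat lies in 66.7% of the higher and 10.9% of the lower candidates, and among all candidates in 36.7% and 12.9%.

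Other genes of the pathway were taken from a list of 21 autophagy genes, and 2 of them had a reproducible peak within 5000 bp, epg-9 and epg-7. This is 9.52%, beside 4.94% of all protein-coding genes. The epg-9 peak, in an intron of this gene for the worm Atg101 protein, was stronger than any at the 9 genes but that of lgg-2, with a signal of 64.3, rank 54, and ranks 53 and 83 in replicates 1 and 2. The epg-7 peak lay 251 bp upstream of this gene for a scaffold protein of selective autophagy, with a signal of 46.5, rank 122, and ranks 135 and 163. Both held GAGAGA and neither held TGACAG.
epg-9 intron (chrIV:2602069-2602269), rank 54: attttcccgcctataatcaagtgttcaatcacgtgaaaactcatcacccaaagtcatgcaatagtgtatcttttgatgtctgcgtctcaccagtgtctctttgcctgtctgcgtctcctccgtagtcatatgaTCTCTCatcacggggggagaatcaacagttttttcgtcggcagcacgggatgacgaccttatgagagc
epg-7 upstream (chrX:7334363-7334563), rank 122: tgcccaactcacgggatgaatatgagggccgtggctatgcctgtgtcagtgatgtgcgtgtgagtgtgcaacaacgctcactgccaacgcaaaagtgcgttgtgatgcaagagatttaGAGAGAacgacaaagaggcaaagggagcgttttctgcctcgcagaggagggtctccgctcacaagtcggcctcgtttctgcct
The median strongest signal was 11.6 over the 21 genes. Of the 19 without a reproducible peak 4 had one of the 2000 highest pooled candidates within 5000 bp, namely atg-16.2, epg-3, epg-8 and sqst-1, which are named after their values were seen. With them 6 of 21 genes (28.6%) had such a candidate, beside 7 of the 9 genes (77.8%) and 20.5% of all protein-coding genes.

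Of 23 regulators and lysosomal genes of the same pathway, among them the TOR kinase gene let-363 and the TFEB-type factor gene hlh-30, 1 had a reproducible peak within 5000 bp (4.35%, beside 4.94% of all). It lay 1340 bp upstream of unc-32, a subunit gene of the vacuolar proton pump, but 144 bp upstream of lin-9, with a signal of 29.3 and rank 383. In the 414 highest peaks of either replicate alone the count was 0 of 23, beside 4.81% of all protein-coding genes in each. The peak near unc-32 ranked 442 in replicate 1 and 871 in replicate 2. The median strongest signal of these 23 genes was 13.5.

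The reproducible peaks most like that of lgg-2 in both replicates, by the distance between log2 signals over the 2 replicate lists, had F55G7.5, unc-62 itself and mtm-3 as their nearest protein-coding genes. The distances were 0.01, 0.08 and 0.09 on the log2 scale. The F55G7.5 peak had signals of 51.8 and 27.6 in replicates 1 and 2, close to the 51.9 and 27.4 at lgg-2. At unc-62 the tagged copy and the native gene cannot be told apart.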

How the data were processed

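UNC-62 ChIP-seq peak lists from 2 replicates of L2 larvae were analysed. The authors deposited narrowPeak lists on builds ce10 and ce11; the ce11 lists were used, since the annotation is of that assembly. Per the notes deposited with them, reproducible peaks passed an irreproducible discovery rate threshold (optimal set), and candidate lists, its input, also hold background. Each peak has a deposited signal value, whose formula no source used here states, a deposited −log10 q and a summit offset. No aligner, peak caller or threshold is named: not given in these sources.

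Peaks were ranked by signal. Genes and 5' ends came from the Ensembl release 115 annotation of WBcel235, and sequences from the RefSeq genome of the same assembly. All 53 listed genes matched by symbol. The nearest 5' end was sought among protein-coding and microRNA genes. Intervals are exact binomial, cover counting only, and treat neighbouring peaks as independent. Window, nearest-end, overlap and motif steps were checked on simulated data (Python 3.11.15, SciPy 1.17.1).

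The members, lists, motifs and alternatives were chosen with earlier results of these data known. The rule for named genes took all 9 members, genes of the other lists with a reproducible peak, the genes around each reproducible member peak, and the 3 genes most like lgg-2; further neighbours are named for position, after their values were seen. Alternatives were other windows, stricter and looser peak sets, single replicates, and other overlap, promoter and motif windows.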

Additional observations from a re-analysis of the deposited data

How the results depend on the processing

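No paired analysis was possible because the series holds 1 group. Of 49 alternative values over 10 results, 29 stayed within 1.5 times the count, within the 95% interval of the share or within 1 SD of the 2 replicate ranks; the causes of the other changes were not tested beyond fewer or more peaks and wider or narrower windows by construction. The counts and shares below are of the listed genes alone. Most have no background at the same setting beside them, so they are not comparable with backgrounds given above. Members with a reproducible peak within 5000 bp numbered 4. The count was 2 to 3 with a single replicate and 2 in the 207 highest reproducible peaks. It was 7 in the 2000 highest pooled candidates, where 20.5% of all protein-coding genes had one within 5000 bp. Members nearest to such a peak numbered 3, and 5 in those 2000. Other autophagy genes numbered 2, and 6 there. Regulators and lysosomal genes numbered 1, and 7 there, with 0 in the 207 highest. From either replicate alone they numbered 0, beside 4.81% of all protein-coding genes. Within 1000 bp they also numbered 0, beside 2.08%. Pooled candidates at the 9 genes numbered 58, with 38 within 2000 bp, 25 within 1000 bp and 31 at or above the median signal. The share found in both replicates was 51.7%, 27.6% with summits within 100 bp, 37.9% with an overlap of at least 50% of each peak and 65.8% within 2000 bp of the genes. The promoter share was 44.8%, 70.7% with promoters of 2000 bp upstream to 500 bp downstream and 19.0% for the genes' own promoters. The TGACAG share was 12.1%, and 5.36% to 15.9% in single replicates. GAGAGA was found at 22.4%, and at 36.2% within 200 bp of the summit. The lgg-2 peak ranked 25, and 28 to 40 in single replicates. The q value could not rank this peak, because 635 pooled candidates share its highest value, and the share found in both replicates cannot be given without one of them. Read depth is unknown, so no value carries a counting error of its reads.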

Other observations

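The lgg-1 site on the 3' side of the gene, rank 426, holds its 2 matches to TGACAG as an inverted pair, CTGTCA and then TGACAG with 2 bases between, a pattern searched for after this sequence was seen. It was the only one of 28005 pooled candidates with that pair within 100 bp of the summit, which makes up 0.00357% of them. The 6 nuclear chromosomes hold 6 such pairs.

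The deposited −log10 q was 2.40 at the 5 reproducible peaks of the 9 genes and also at the lgg-1 site of rank 426 and the lgg-2 intron site of rank 494. It was tied at that value in 635 pooled candidates, of which 414 form the reproducible set.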
